A study of Mus musculus with 6 samples.

Results

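The 10 genes described here (Cpa3, Mcpt8, Fcer1a, Ms4a2, Hdc, Prss34, Prg2, Epx, Il5ra and Il1rl1) encode products by which mast cells, basophils and eosinophils are recognized. They were taken by symbol from a table of 55421 mouse genes, and 9 of the 10 had enough counts to be tested among 18375 genes. They were compared between AE9a leukemia cells of intact and of Ddit4 knockout origin. AE9a (AML1-ETO9a) is a truncated form of the AML1-ETO fusion protein of acute myeloid leukemia, and the product of Ddit4 restrains mTOR signaling under stress. All mice were C57BL/6. According to the labels and the methods, c-Kit+ hematopoietic stem and progenitor cells of Ddit4+/+ or Ddit4-/- mice received AE9a and GFP by retrovirus, and GFP+ leukemia cells were passed on to irradiated recipients. RNA came from leukemia cells of the bone marrow, which the labels also describe as maintained in IMDM with serum. By their labels both groups received AE9a from a virus and differ in the Ddit4 genotype of the donor mice. The groups also differed in Runx1t1 and in sex-linked genes, with values given below. Donors and recipients were young adults. The methods describe the purchased C57BL/6 mice as female and give no sex for the Ddit4-/- mice. Whether GFP+ cells were sorted again before RNA was taken is not stated for these libraries. There were 3 libraries of AE9a-Ddit4+/+ and 3 of AE9a-Ddit4-/- cells. The study describes such cells as taken from the marrow of transplanted mice of each group. Whether each library is a separate mouse, and whether libraries of 1 group share a primary leukemia, is not stated. In the primary transplants of the study, fewer AE9a-Ddit4-/- recipients developed leukemia than there are AE9a-Ddit4-/- libraries. If these libraries descend from those mice, some of them share a primary leukemia. The p values measure only the spread between libraries, which may be smaller than that between independent leukemias or may be technical.

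Mast cells, basophils and eosinophils are granule-bearing cells of allergic and anti-parasite responses that arise from myeloid progenitors in the bone marrow. Mast cells and basophils carry the high-affinity IgE receptor, whose crosslinking by antigen releases histamine and proteases stored in granules. Eosinophils store toxic cationic proteins and depend on IL-5 for their growth. GATA factors, above all GATA2, drive much of the gene program that these lineages share. Several of the genes, Cpa3 among them, are also transcribed in immature blood progenitors, so that a transcript of 1 such gene does not define a cell type.

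The libraries held 62141558 to 72717681 counts each. The targeted gene, Ddit4, was at 161 to 342 CPM (counts scaled to 1e+06 per library) in AE9a-Ddit4+/+ and at 77.7 to 85.9 CPM in AE9a-Ddit4-/- libraries, a log2 fold change of -1.56 (edgeR adjusted p 0.00635, SE 0.28). Runx1t1, the mouse counterpart of the ETO part of AE9a, was at 6.47 to 18.1 CPM in AE9a-Ddit4+/+ and at 69.9 to 206 CPM in AE9a-Ddit4-/- libraries. Its log2 fold change was 3.55 (edgeR adjusted p 0.00295, SE 0.52). Sex-linked genes differed with genotype. Y-linked Ddx3y was at or under 0.0774 CPM in AE9a-Ddit4+/+ and at 88.2 to 125 CPM in AE9a-Ddit4-/- libraries, while Xist, which is transcribed from the inactive X chromosome, was at 566 to 1032 CPM in AE9a-Ddit4+/+ and at 20.3 to 129 CPM in AE9a-Ddit4-/- libraries. The AE9a-Ddit4-/- libraries thus held RNA of both kinds. Genotype cannot be told apart from the difference in sex-linked genes, or from that in Runx1t1, in any comparison below. Mitochondrial genes took 5.03% to 7.90% of the counts in AE9a-Ddit4+/+ and 11.3% to 16.4% in AE9a-Ddit4-/- libraries. Of the marker lists for other cells, 9 of 9 erythroid and 4 of 12 neutrophil genes fell, while 7 of 8 megakaryocyte genes rose and 1 fell. Genes of T and NK cells (7 of 9), B cells (5 of 7), stroma and endothelium (5 of 8), monocytes (2 of 10) and immature leukemia cells (4 of 4) rose, with none lower. At an edgeR adjusted p below 0.05, 19.4% of all genes tested rose and 10.7% fell. Summed marker levels in AE9a-Ddit4+/+ and AE9a-Ddit4-/- libraries were 6786 to 14812 and 118 to 608 CPM for erythroid, 7859 to 12969 and 1674 to 5470 CPM for neutrophil, and 99.8 to 161 and 2276 to 3028 CPM for megakaryocyte genes. The sums were 10.8 to 48.4 and 81.2 to 111 CPM for T and NK cells, 1.05 to 4.73 and 62.7 to 124 CPM for B cells, and 6.25 to 10.0 and 160 to 193 CPM for stroma and endothelium. They were 335 to 1115 CPM for monocytes in AE9a-Ddit4-/- and 595 to 969 CPM in AE9a-Ddit4+/+ libraries, and 95.6 to 223 CPM for immature leukemia cells in AE9a-Ddit4+/+ against 1456 to 1887 CPM in AE9a-Ddit4-/- libraries. Pecam1 alone made up 123 to 144 CPM of the stroma and endothelium sum in AE9a-Ddit4-/- libraries. Of that list, Col1a1, Col1a2 and Lepr did not pass. The part of these shifts in the results below was not tested.

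The promoters of 5 members are shown first, since their letters bear on the GATA and RUNX factors that act in these lineages and on the RUNX1 part of the fusion protein. Each sequence holds the 250 bases before a transcription start in RefSeq (GRCm38.p6), 5' to 3' on the strand of the gene. Capitals mark GATA words (AGATAA and its variant AGATAG, as well as TGATAA and its variant TGATAG) and, as the RUNX word, TGTGGT, searched on both strands. A word read on the other strand appears as its reverse complement, and no GATA word overlapped a RUNX word. Cpa3 lies at chr3:20242182-20242431 (minus strand), Mcpt8 at chr14:56085198-56085447 (minus), Il5ra at chr6:106749038-106749287 (minus), Ms4a2 at chr19:11623720-11623969 (minus) and the distal Il1rl1 promoter at chr1:40429320-40429569 (plus).
Cpa3: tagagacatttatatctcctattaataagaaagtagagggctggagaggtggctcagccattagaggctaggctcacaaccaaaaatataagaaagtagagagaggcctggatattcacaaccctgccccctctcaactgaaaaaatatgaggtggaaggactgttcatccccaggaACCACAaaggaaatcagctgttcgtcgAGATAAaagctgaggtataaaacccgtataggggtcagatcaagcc
Mcpt8: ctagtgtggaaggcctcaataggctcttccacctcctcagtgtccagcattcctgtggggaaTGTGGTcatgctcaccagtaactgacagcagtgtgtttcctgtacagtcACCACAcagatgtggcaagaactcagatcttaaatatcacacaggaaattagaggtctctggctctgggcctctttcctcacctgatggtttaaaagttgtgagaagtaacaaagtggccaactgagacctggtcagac
Il5ra: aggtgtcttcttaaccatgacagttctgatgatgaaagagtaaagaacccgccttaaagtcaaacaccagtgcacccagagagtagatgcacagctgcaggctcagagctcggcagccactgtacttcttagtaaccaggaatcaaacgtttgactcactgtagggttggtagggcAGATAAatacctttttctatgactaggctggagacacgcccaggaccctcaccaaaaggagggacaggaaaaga
Ms4a2: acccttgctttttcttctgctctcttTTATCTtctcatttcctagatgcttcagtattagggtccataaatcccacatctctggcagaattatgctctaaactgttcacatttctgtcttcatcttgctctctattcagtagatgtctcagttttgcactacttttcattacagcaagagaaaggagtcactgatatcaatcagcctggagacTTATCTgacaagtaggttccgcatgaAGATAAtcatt
Il1rl1: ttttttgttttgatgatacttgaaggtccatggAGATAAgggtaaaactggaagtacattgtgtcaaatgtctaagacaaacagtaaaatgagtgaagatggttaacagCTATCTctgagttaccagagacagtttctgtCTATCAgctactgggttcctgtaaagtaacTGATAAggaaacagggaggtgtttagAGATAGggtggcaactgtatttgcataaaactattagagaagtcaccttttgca

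The table gave 10 promoters for 9 members, since Il1rl1 has 2 starts, and no entry for Prg2. A GATA word stood in 8 of the 10 promoters, against 26.5% of 32851 promoters of the same length. Both Il1rl1 starts are counted among the 8, and the promoters were not matched for base composition. The Ms4a2 promoter held 3 GATA words and the distal Il1rl1 promoter 5, a number of 3 or more that is found in 1.35% of all promoters. In Cpa3 the GATA word began 46 bases before the start and in Il5ra 74 bases before it. A RUNX word stood in 4 of the 10 promoters (Cpa3, Mcpt8, Fcer1a and the proximal start of Il1rl1), against 14% of all. Mcpt8 had 2 RUNX words and no GATA word, and Epx had neither. These are matches of letters and not measured binding sites.

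To examine whether the 10 genes differ with the loss of Ddit4, they were read from a test on the whole table. Of the 9 members tested, 3 rose past an adjusted p of 0.05 in AE9a-Ddit4-/- cells (Cpa3, Mcpt8 and Il5ra). Over all genes tested, 19.4% were higher by the same rule, 10.7% lower and 30.1% in either direction. None of the 9 was lower, either at an adjusted p below 0.05 or at an unadjusted p below 0.05 in edgeR, and DESeq2 and limma-voom also gave 0. At an unadjusted p below 0.05, 5 members were higher, against 25% of all genes tested, and 0 lower, against 17.4%. All AE9a-Ddit4-/- libraries lay above all AE9a-Ddit4+/+ libraries in 4 members, against 27.9% of genes tested, and below them in 0, against 22.2% (50.1% in either direction). The median log2 fold change was 0.77 over the 9 members and 0.04 over all genes tested. Without AE9a-Ddit4+/+ library 2 the median of the members was 1.30, and it was 0.44 with no filter on low counts and 0.47 with counts divided by 4. Il5ra passed the filter on low counts through the AE9a-Ddit4-/- libraries alone, so its place among the genes tested is tied to its direction. Setting Il5ra at its lower bound cannot move the median of the members, since the bound still lies above it. Il5ra was not tested with counts divided by 4, where 2 of 8 members rose (all genes: 3319 of 15074). Nor was it with a minimum of 10 counts in every library. There 2 of 7 members rose (all genes: 2341 of 14269), with a median of 0.84. In bulk RNA, fewer cells of a type and less RNA per cell cannot be told apart.

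**Figure D1:**
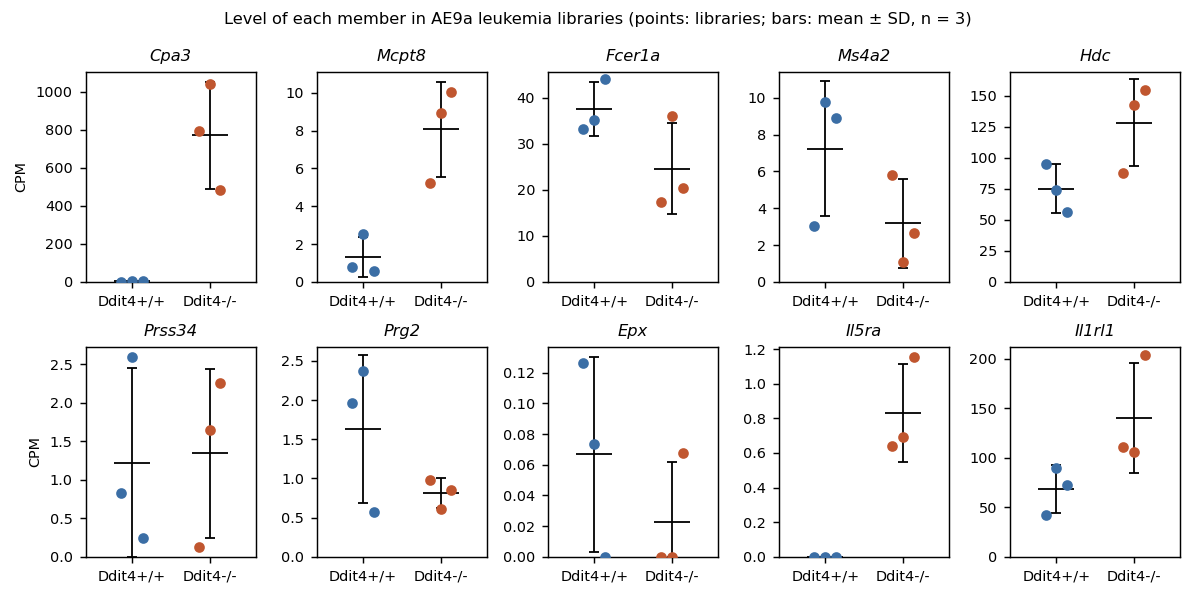
Level of each member in CPM (vertical axes start at 0 and differ between panels) in AE9a-Ddit4+/+ (blue) and AE9a-Ddit4-/- (orange) libraries. Points are libraries, and the bars give the mean and SD of 3 (cut at 0 where the SD is larger than the mean). The groups lie apart in Cpa3, Mcpt8, Il5ra and Il1rl1 and overlap in the other 6 panels.

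Among the granule proteases, Cpa3 (ENSMUSG00000001865, chr3:20215620-20242181, minus strand) changed most. It encodes carboxypeptidase A3, which mast cells keep in their secretory granules. Cpa3 was at 1.36, 4.02 and 2.04 CPM in AE9a-Ddit4+/+ cells (libraries 1 to 3 in order, as below) and at 791, 1039.8 and 480 CPM in AE9a-Ddit4-/- cells. The lowest AE9a-Ddit4-/- library, number 3, was still far above the highest AE9a-Ddit4+/+ library, number 2. Mean levels stood at 2.48 ± 1.38 and 770.1 ± 280.5 CPM (SD, n = 3 each), and the log2 fold change was 8.28 (edgeR adjusted p 0.000285, SE 0.58). Per kilobase of exon, Cpa3 stood at place 10513 of 18375 genes tested in AE9a-Ddit4+/+ cells and at place 74 in AE9a-Ddit4-/- cells. Cpa3 rose in all 17 alternative settings, with log2 fold changes of 7.95 to 8.82.

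Mcpt8 (ENSMUSG00000022157, chr14:56082166-56085273, minus strand) encodes mast cell protease 8, which in spite of its name is a basophil protease. Its level was 0.791, 2.55 and 0.588 CPM in AE9a-Ddit4+/+ and 5.25, 8.92 and 10.1 CPM in AE9a-Ddit4-/- libraries. Every AE9a-Ddit4-/- library lay above every AE9a-Ddit4+/+ library. Mean levels stood at 1.31 ± 1.08 and 8.08 ± 2.51 CPM (SD, n = 3 each), and the log2 fold change reached 2.62 (edgeR adjusted p 0.0202, SE 0.64). The call was lost without AE9a-Ddit4+/+ library 1 (2.36, edgeR adjusted p 0.0658) or 3 (2.27, 0.0555), and likewise when leaving out AE9a-Ddit4-/- library 2 (2.52, 0.0528) or 3 (2.41, 0.0605), within a range of 0.000102 to 0.0658 over all alternatives. Mcpt8 belongs to a family of similar genes, and how the counting treated reads that match several of them is not known. A microRNA gene lies inside each of the 2 genes on the same strand, Mir7007 in Cpa3 and Mir6949 in Mcpt8.

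Prss34 (ENSMUSG00000056399, chr17:25298394-25300165, plus strand) encodes mast cell protease 11, another protease of basophils. It was at 0.823, 2.59 and 0.248 CPM in AE9a-Ddit4+/+ and at 0.128, 1.65 and 2.26 CPM in AE9a-Ddit4-/- libraries. The groups overlapped over nearly their whole range, and the highest library exceeded the lowest by 10.5 times in AE9a-Ddit4+/+ and by 17.6 times in AE9a-Ddit4-/- cells. The log2 fold change was 0.14 (edgeR adjusted p 0.936, SE 1.08), and its sign turned in 6 alternative settings. The 2 basophil proteases, Mcpt8 and Prss34, therefore gave different values in the same libraries, although the difference between them was not tested.

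The high-affinity IgE receptor is built from an alpha chain that binds IgE (Fcer1a), a beta chain that amplifies the signal (Ms4a2) and a pair of gamma chains (Fcer1g) that it shares with other Fc receptors. Fcer1a (ENSMUSG00000005339, chr1:173221284-173227214, minus strand) was at 33.1, 35.2 and 44.1 CPM in AE9a-Ddit4+/+ and at 17.4, 35.9 and 20.4 CPM in AE9a-Ddit4-/- libraries. AE9a-Ddit4-/- library 2 lay inside the range of the AE9a-Ddit4+/+ libraries, and the other two lay below it. The log2 fold change was -0.61 (edgeR adjusted p 0.181, SE 0.31). Without AE9a-Ddit4-/- library 2 it was -1.03 and past the threshold (edgeR adjusted p 0.0425, SE 0.28), the lowest p in a range of 0.0425 to 0.405 over the alternatives.

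Ms4a2 (ENSMUSG00000024680, chr19:11615523-11623719, minus strand) was at 3.04, 9.78 and 8.88 CPM in AE9a-Ddit4+/+ and at 5.81, 1.05 and 2.66 CPM in AE9a-Ddit4-/- libraries. AE9a-Ddit4+/+ library 1 lay within the range of the AE9a-Ddit4-/- libraries, so the groups overlapped. The log2 fold change was -1.19 (edgeR adjusted p 0.238, SE 0.70), with no call in any alternative. The gamma chain Fcer1g, which is no member, rose from 44.3, 81.1 and 40.3 CPM to 113, 183 and 154 CPM (log2 fold change 1.44, edgeR adjusted p 0.0141, SE 0.32), with no overlap. Its call was lost without AE9a-Ddit4+/+ library 1 (1.30, 0.0532) or 3 (1.25, 0.0516), in a range of adjusted p of 0.000407 to 0.0532. The gamma chain thus rose, while neither chain that is particular to the IgE receptor passed the test. The difference between the chains was not tested.

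**Figure D2:**
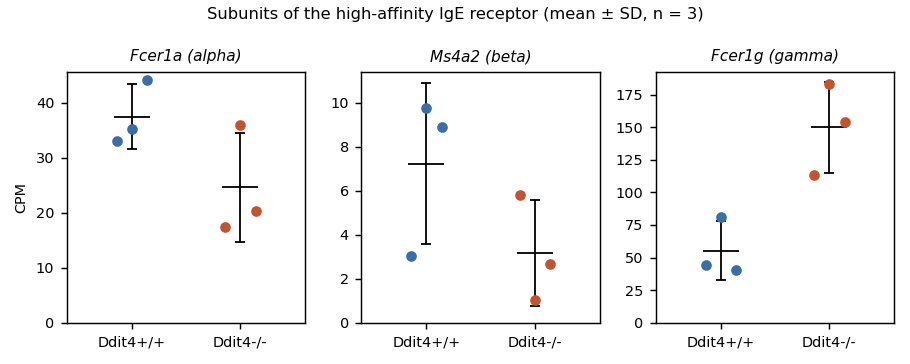
Levels in CPM of the 3 chains of the high-affinity IgE receptor in AE9a-Ddit4+/+ (blue) and AE9a-Ddit4-/- (orange) libraries, with points for libraries and bars for the mean and SD of 3. Fcer1g lies higher in all AE9a-Ddit4-/- libraries, whereas the groups overlap in Fcer1a and Ms4a2.

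Hdc (ENSMUSG00000027360, chr2:126593667-126619299, minus strand) encodes histidine decarboxylase, the enzyme that makes histamine. Its level was 95.5, 74.1 and 56.0 CPM in AE9a-Ddit4+/+ and 88.2, 143 and 155 CPM in AE9a-Ddit4-/- libraries. AE9a-Ddit4-/- library 1 lay below AE9a-Ddit4+/+ library 1, and the other two AE9a-Ddit4-/- libraries lay above the whole AE9a-Ddit4+/+ group. The log2 fold change was 0.77 (edgeR adjusted p 0.0795, SE 0.29), which passed without AE9a-Ddit4-/- library 1 (0.99, adjusted p 0.0426, in a range of 0.0426 to 0.233 over the alternatives). Histamine is carried into granules by the monoamine transporter VMAT2, encoded by Slc18a2. Slc18a2 rose from 7.95, 9.62 and 6.07 CPM to 364, 252 and 186 CPM (log2 fold change 5.08, edgeR adjusted p 0.000248, SE 0.34). In these libraries the transporter changed past the threshold and the enzyme did not, although the difference between them was not tested.

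Il1rl1 (ENSMUSG00000026069, chr1:40429570-40465415, plus strand) encodes ST2, the receptor for the alarmin IL-33 on mast cells, basophils and some lymphocytes. It was at 41.8, 89.8 and 72.5 CPM in AE9a-Ddit4+/+ and at 111, 106 and 204 CPM in AE9a-Ddit4-/- libraries. The groups did not overlap, and AE9a-Ddit4-/- library 3 stood well above the other two. Mean levels stood at 68.0 ± 24.3 and 140.2 ± 55.3 CPM (SD, n = 3 each), and the log2 fold change was 1.04 (edgeR adjusted p 0.0656, SE 0.36). DESeq2 (1.06, adjusted p 0.0269) and edgeR without AE9a-Ddit4+/+ library 2 (1.30, 0.0461) put it past the threshold, in a range of adjusted p of 0.0269 to 0.227. Il1rap, the accessory chain of this receptor, was at 7.12, 11.4 and 3.56 CPM in AE9a-Ddit4+/+ and at 5.30, 11.4 and 9.69 CPM in AE9a-Ddit4-/- libraries and did not pass (0.26, edgeR adjusted p 0.729, SE 0.50).

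The eosinophil members were Il5ra, Prg2 and Epx. Il5ra (ENSMUSG00000005364, chr6:106710357-106749037, minus strand) encodes the alpha chain of the IL-5 receptor. It had 0 counts in all 3 AE9a-Ddit4+/+ libraries and 40, 42 and 85 counts in AE9a-Ddit4-/- libraries, that is 0.642, 0.691 and 1.16 CPM. A count of 0 was taken to allow up to 12 counts in a library, or 0.163 to 0.198 CPM. Against that limit Il5ra was at least 4.51-fold higher in AE9a-Ddit4-/- cells (edgeR adjusted p 0.00364). The call held in all 15 alternatives in which the gene could be tested, with an adjusted p of at most 0.0449, but the level stayed low, and place 16069 of 18375 genes tested per kilobase lies near the bottom of the order.

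Prg2 (ENSMUSG00000027073, chr2:84980461-84983632, plus strand) encodes major basic protein, the main protein of eosinophil granules. It was at 1.96, 2.37 and 0.573 CPM in AE9a-Ddit4+/+ and at 0.980, 0.609 and 0.857 CPM in AE9a-Ddit4-/- libraries. The AE9a-Ddit4-/- libraries lay close together inside the wide range of the AE9a-Ddit4+/+ group, and the log2 fold change of -1.0 did not pass (edgeR adjusted p 0.252, SE 0.61). Epx (ENSMUSG00000052234, chr11:87864000-87875536, minus strand) encodes eosinophil peroxidase, an enzyme found in eosinophil granules. It had 8, 5 and 0 counts in AE9a-Ddit4+/+ and 0, 0 and 5 counts in AE9a-Ddit4-/- libraries, all under the limit of 12 counts. It was not tested, and a difference between the groups was not detectable at this depth.

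Levels were then compared between genes per kilobase of annotated exon. In AE9a-Ddit4+/+ cells Fcer1a stood first with 37.5 ± 5.85 CPM per kilobase (SD, n = 3), followed by Hdc with 11.8 ± 3.10 and Il1rl1 with 9.87 ± 3.52. The libraries of Hdc and Il1rl1 overlapped on this scale, and so did those of each neighbouring pair from Ms4a2 (2.57) through Prg2 (1.95), Cpa3 (1.63) and Mcpt8 (1.31) to Prss34 (1.0). Epx (0.0244) and Il5ra (0) came last. In AE9a-Ddit4-/- cells the first place was taken by Cpa3 with 508 ± 185 CPM per kilobase. Fcer1a (24.6 ± 9.94), Il1rl1 (20.3 ± 8.02) and Hdc (20.1 ± 5.55) followed and overlapped between neighbours, and Mcpt8 came next with 8.09 ± 2.52. Ms4a2 (1.13), Prss34 (1.1) and Prg2 (0.973) overlapped with each other and had higher means than Il5ra (0.232) and Epx (0.00828). The lowest Prss34 library (0.105) lay below all Il5ra libraries (0.180 to 0.323), so these 2 genes were not apart.

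The summed level of the 10 members was 178, 220.5 and 185 CPM in AE9a-Ddit4+/+ and 1019.7, 1338 and 876 CPM in AE9a-Ddit4-/- libraries. Cpa3 made up 0.763% to 1.82% of that sum in AE9a-Ddit4+/+ libraries and 54.8% to 77.7% in AE9a-Ddit4-/- libraries. Hdc, Il1rl1 and Fcer1a together took most of the sum in AE9a-Ddit4+/+ libraries. Libraries of 1 group also differed from each other. Among the 3 AE9a-Ddit4+/+ libraries, number 2 was the highest in 6 members (Cpa3, Mcpt8, Ms4a2, Prss34, Prg2 and Il1rl1). The coefficient of variation in AE9a-Ddit4+/+ libraries was 55.8% for Cpa3, 82.3% for Mcpt8 and 15.6% for Fcer1a, beside a median of 29.3% over all genes tested. In AE9a-Ddit4-/- libraries it was 36.4%, 31.1% and 40.4%, beside a median of 26.6%.

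**Figure D3:**
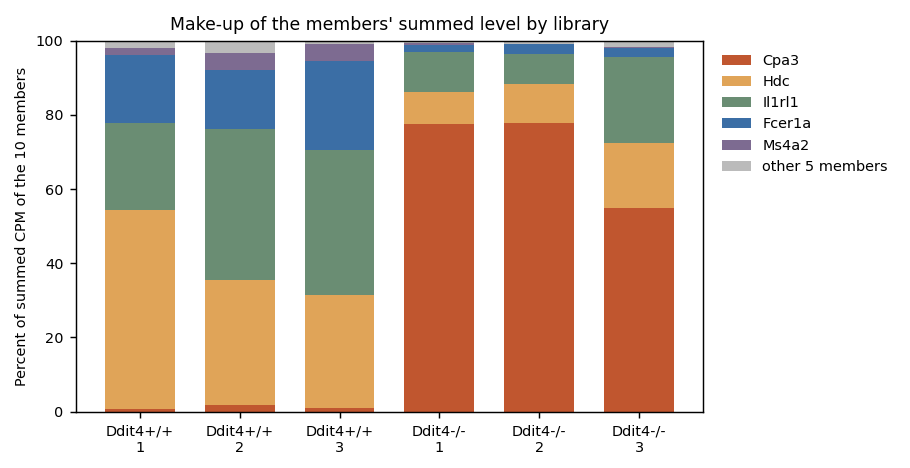
Share of each member in the summed CPM of the 10 members (vertical axis, percent), with 1 bar for each library. Cpa3 (red-brown) fills 54.8% to 77.7% of the bars of the AE9a-Ddit4-/- libraries and at most 1.82% of the others.

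Genes that work with the members were examined next, from lists of pathway and lineage genes. The counts of each list stand beside 19.4% of all genes tested that rose and 10.7% that fell, with a median of 0.04. Of 18 genes of Fc epsilon receptor signaling, all of them tested, 8 rose and none fell in AE9a-Ddit4-/- cells, with a median log2 fold change of 0.48. The phospholipases Plcg1 (3.39, edgeR adjusted p 0.000429, SE 0.28) and Plcg2 (2.92, adjusted p 0.00193, SE 0.38), which release the calcium signal, rose most. Inpp5d, which encodes the inhibitory phosphatase SHIP1, rose by 1.14 (adjusted p 0.00942, SE 0.23). Without AE9a-Ddit4+/+ library 3 the number that rose was 5, and the median came to 0.78 when AE9a-Ddit4+/+ library 2 was dropped. Many of these genes also serve receptors of other blood cells.

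Of 16 genes for the receptor chains, ligands and signaling of IL-3, IL-5, GM-CSF and IL-33, 12 were tested, 2 rose and 2 fell, with a median of -0.25 that was -0.15 when library 2 or 3 of AE9a-Ddit4+/+ was left out and -0.16 when this was AE9a-Ddit4-/- library 1. The number that rose was 1 whichever library was left out. Il3ra, the alpha chain of the IL-3 receptor, rose from 7.37 ± 1.80 to 33.3 ± 6.08 CPM (SD, n = 3 each, log2 fold change 2.18, edgeR adjusted p 0.00199, SE 0.29). Csf2rb, the beta chain that the receptors for IL-3, IL-5 and GM-CSF share, was at 215 ± 63.6 and 179 ± 28.2 CPM and did not pass (-0.27, adjusted p 0.486, SE 0.26). Its homolog for IL-3, Csf2rb2, did not pass either (-0.88, adjusted p 0.252, SE 0.53), but did without AE9a-Ddit4+/+ library 1 (-1.30, 0.0341, in a range of 0.0341 to 0.535). Of the kinases and adaptors, Jak2 (-0.85, adjusted p 0.0168) and Traf6 (-0.89, 0.0126) fell. The signal transducer Stat5a rose slightly (0.53, 0.0373), a call that was lost in 10 of 17 alternatives with an adjusted p of up to 0.135, and Stat5b did not pass (-0.37, 0.362). Jak2 lost its call without AE9a-Ddit4+/+ library 1 (-0.81, 0.0525). The ligand gene Il3 had 0 counts in all libraries.

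Among 18 genes of granule loading and lipid mediators, 17 were tested, 6 rose and 2 fell, with a median of 0.32, which was 0.06 without AE9a-Ddit4-/- library 1. The largest rise, before that of Slc18a2, was that of Hpgds, the synthase of prostaglandin D2, from 0.253, 0.442 and 0.371 CPM to 29.1, 14.3 and 16.8 CPM (log2 fold change 5.81, edgeR adjusted p 0.000382, SE 0.47). Alox5, which makes the first step to leukotrienes, fell by 2.05 (adjusted p 0.00437, SE 0.34), and its activator Alox5ap did not pass (-0.28, 0.559). Unc13d, a factor of granule release, fell by 1.53 (adjusted p 0.00822, SE 0.30). Srgn, which encodes the serglycin core that holds proteases in granules, was the most abundant of the list with 767 ± 71.0 and 955 ± 69.3 CPM and did not pass (0.32, adjusted p 0.192, SE 0.17).

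Of 14 other mast cell genes only 6 could be tested, of which 2 rose and 1 fell, with a median of 1.07. This median rests on few genes, and it was 0.02 without AE9a-Ddit4-/- library 3, where 2 fell, 0.61 without AE9a-Ddit4+/+ library 2 and 2.66 with a minimum of 10 counts in every library. Kit, the receptor for stem cell factor on mast cells and on blood progenitors, rose from 28, 31.6 and 14.6 CPM to 509, 304 and 422 CPM (log2 fold change 4.06, edgeR adjusted p 0.00055, SE 0.37). Cma1, a chymase, rose from 0.380, 0.855 and 0.650 CPM to 14, 5.79 and 6.87 CPM (3.82, adjusted p 0.00274, SE 0.55). Mcpt2, a protease of mucosal mast cells, fell from 2.06, 1.44 and 19.8 CPM to 0, 0 and 0.408 CPM (-5.77, adjusted p 0.0449, SE 1.78). With 0, 0 and 30 counts in AE9a-Ddit4-/- libraries, it passed the filter on low counts through the AE9a-Ddit4+/+ libraries. Its place among the genes tested is thus tied to its direction, and the fitted value ran from -12.0 to -3.63 over the alternatives. AE9a-Ddit4+/+ library 3 carried most of the Mcpt2 counts, and without it the log2 fold change was -3.63 and not past the threshold (adjusted p 0.161, in a range of 0.0175 to 0.161). The call was also lost when AE9a-Ddit4+/+ library 1 (0.0581) or one of AE9a-Ddit4-/- libraries 1 (0.115) and 2 (0.0969) was left out, as well as with limma-voom (0.0536). Ctsg did not pass (1.37, adjusted p 0.0842, SE 0.52), but did without AE9a-Ddit4+/+ library 2 (1.96, 0.0253, in a range of 0.0253 to 0.225), with DESeq2 (1.40, 0.028) and with limma-voom (1.53, 0.049), and Mcpt4 was too low to be tested. The tryptase gene Tpsab1 had 0 counts in all 6 libraries, which says little here, since C57BL/6 mice are known to lack its product. The other tryptase, Tpsb2, which mast cells of this strain do make, was at 0 in 5 libraries and at 0.218 CPM in AE9a-Ddit4-/- library 3. The receptor genes Mrgprb1 and Mrgprb2 and the proteases Cma2 and Mcpt9, named after their values were seen, were also at 0 in all libraries, so that 5 of 14 genes of this list had no counts.

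Mcpt8 lies in a cluster of protease genes on chromosome 14 that holds 9 genes of the lists between chr14:55941451-56262260, a grouping made after the values were seen. Of the 6 that were tested, Cma1 and Mcpt8 rose and Mcpt2 fell, with the limits on Mcpt2 given above. The rise was thus not shared by all genes of the cluster, and the split of reads among its similar genes is uncertain.

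Of 14 other basophil genes, all were tested, 7 rose and 1 fell, with a median of 1.39. Itga2, which encodes the integrin CD49b that basophils share with NK cells and platelets, rose from 0.380, 0.604 and 0.325 CPM to 58.2, 8.21 and 30.0 CPM (log2 fold change 6.19, edgeR adjusted p 0.00182, SE 0.80). Ifitm1, a membrane protein, rose from 7.73 ± 4.17 to 99.0 ± 92.3 CPM (SD, n = 3 each, log2 fold change 3.68, adjusted p 0.0146, SE 0.83). Aqp9, a water and glycerol channel, fell by 3.01 (adjusted p 0.00123, SE 0.35). Cd69, an early activation marker of leukocytes, rose by 1.76 (adjusted p 0.026, SE 0.46), a call lost when AE9a-Ddit4+/+ library 2 or any AE9a-Ddit4-/- library was left out (adjusted p 0.054 to 0.0866, in a range from 0.00117), and Itgb7 did not pass (0.47, 0.299). Cd200r3, a receptor of basophils and mast cells, was at 0.712, 1.83 and 1.1 CPM in AE9a-Ddit4+/+ and at 5.08, 0.230 and 5.04 CPM in AE9a-Ddit4-/- libraries. It did not pass (1.51, adjusted p 0.281, SE 0.97), and without AE9a-Ddit4-/- library 2 it did (2.01, 0.0403, in a range of 0.0403 to 0.667). The number of genes that rose was 3 without AE9a-Ddit4-/- library 1 and 4 when library 3 of either group was left out. At an edgeR adjusted p below 0.01 it was 1, beside 1964 of all 18375 genes tested. Of the genes that rose, Itga2 and Cd69 are thus not particular to basophils, and the cells that held these transcripts were not tested.

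Of 11 other eosinophil genes, 7 were tested, 3 rose and none fell, with a median of 0.99 (2.09 with counts divided by 4). Ear2, an eosinophil-associated ribonuclease with close relatives in the genome, rose by 3.41 (edgeR adjusted p 0.00407, SE 0.55). Adgre4, an adhesion receptor, also rose by 3.41 (adjusted p 0.00433, SE 0.56). Of the 10 monocyte markers, C1qa (3.79, adjusted p 0.00219) and C1qb (3.85, 0.00108) rose as well, while 8 did not pass. Which cells held the Ear2 and Adgre4 transcripts was not tested. Ccr3, the receptor for eotaxin, rose from 0.0633, 0.147 and 0.309 CPM to 0.707, 0.790 and 3.0 CPM (3.10, adjusted p 0.0319, SE 0.87). Ccr3 had only 4, 10 and 20 counts in AE9a-Ddit4+/+ libraries and passed the filter on low counts through the AE9a-Ddit4-/- libraries. Its place among the genes tested is thus tied to its direction. Without AE9a-Ddit4-/- library 3 its call was lost (2.04, 0.132, in a range of 0.00213 to 0.132), as it was without AE9a-Ddit4+/+ library 1 (0.0867) or 2 (0.0711). Siglecf, a lectin on the eosinophil surface, did not pass (4.82 ± 1.95 and 9.26 ± 3.38 CPM, 0.94, adjusted p 0.167, SE 0.47). Nor did Il4ra (0.61, 0.0748) and Adgre1 (0.99, 0.298), although Il4ra passed without AE9a-Ddit4+/+ library 2 (0.81, 0.0273, in a range of 0.0273 to 0.2) and with DESeq2 (0.62, 0.0467). Prg3, a homolog of Prg2, was at 0.127 CPM in 1 library and 0 in the others, and Ear1 had 0 counts throughout.

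Of 24 transcription factors of these 3 lineages, all were tested, 5 rose and 1 fell. Over all genes tested, 19.4% rose and 10.7% fell. The median of the list was 0.04, as it was over all genes tested. With library totals as the only scaling the median of the list lay slightly below 0 (-0.03). Gata2 rose from 123, 140 and 178 CPM to 579, 613 and 501 CPM (log2 fold change 1.94, edgeR adjusted p 0.000869, SE 0.21), whereas Gata1, the related factor of eosinophils, mast cells, megakaryocytes and red cells, was at 140 ± 25.5 and 133 ± 13.5 CPM and did not pass (-0.08, adjusted p 0.803, SE 0.20). Mitf, a factor of mast cells and melanocytes, was at 0.823, 3.15 and 0.928 CPM in AE9a-Ddit4+/+ and at 7.10, 1.05 and 6.88 CPM in AE9a-Ddit4-/- libraries and did not pass (1.61, adjusted p 0.183, SE 0.83). Cebpa (0.77, adjusted p 0.29, SE 0.51) and Cebpe (-1.08, adjusted p 0.105, SE 0.44), both of the granulocyte lineage, did not pass, though Cebpa did without AE9a-Ddit4+/+ library 2 (1.49, 0.028, in a range of 0.028 to 0.584) and Cebpe with DESeq2 (-1.07, 0.0447, in a range of 0.0447 to 0.226). Runx2 rose by 2.19 (adjusted p 0.0158, SE 0.50), and this was lost when library 1 of AE9a-Ddit4+/+ (0.0585) or of AE9a-Ddit4-/- (0.0509) was left out. Ikzf1 fell by 1.16 (adjusted p 0.0081, SE 0.23), and Bhlhe40 did not pass (-1.25, adjusted p 0.0731, SE 0.45) but did without AE9a-Ddit4+/+ library 2 (-1.60, 0.013, in a range of 0.013 to 0.224) and with DESeq2 (-1.24, 0.0288). The counts of this list depended on the tool and on single libraries. With DESeq2 6 rose and 5 fell, and without AE9a-Ddit4+/+ library 2 there were 6 and 3. Without AE9a-Ddit4+/+ library 1 the number that rose was 2, and it was 3 when either library 3 of AE9a-Ddit4+/+ or library 1 of AE9a-Ddit4-/- was dropped. The number that fell was 2 when library 3 of either group was left out.

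**Figure D4:**
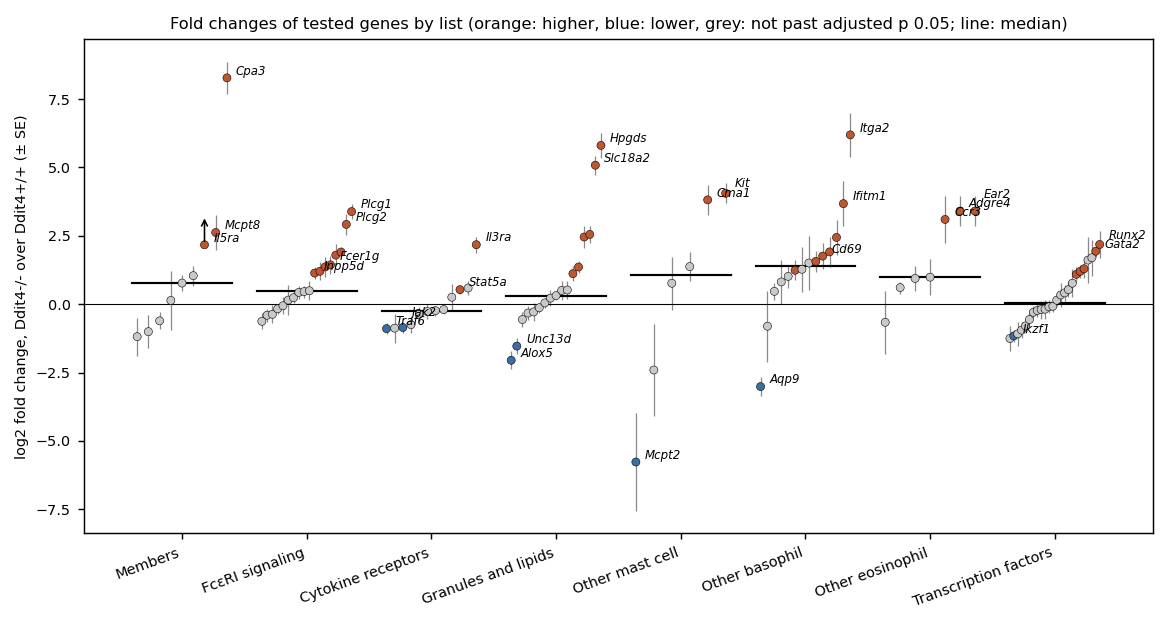
Log2 fold change of AE9a-Ddit4-/- over AE9a-Ddit4+/+ (vertical axis, bars are SE) for each gene tested of the members and of 7 lists (horizontal axis, genes ordered by value). Orange points are higher and blue points lower at an edgeR adjusted p below 0.05, grey points did not pass, lines are medians, and the arrow sets Il5ra at its lower bound of 4.51-fold. Cpa3 has the largest value shown, and the medians of the members and of the 7 lists lie between -0.25 and 1.39.

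Genes with a pattern like that of a member over the 6 libraries were sought by the root mean square difference of centred log2 CPM. Nearest to Cpa3, the member with the highest mean level, were Clstn3 (0.260), Myo5c (0.323) and Pear1 (0.344). All 3 rose, Clstn3 by 8.45 and Pear1 by 8.59 on the log2 scale, while Myo5c was too low in AE9a-Ddit4+/+ libraries for a reliable value. Nearest to Il5ra, which had the largest fitted change, were 4930426D05Rik (0.0417), Gm31143 (0.119) and Ppil6 (0.147), each of them at 0 in all AE9a-Ddit4+/+ libraries.

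**Figure D5:**
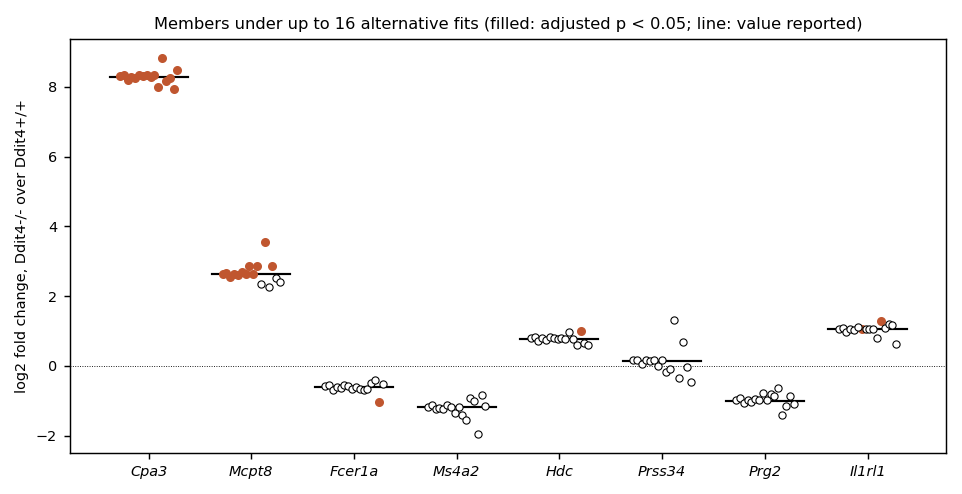
Log2 fold change of 8 members (vertical axis) under up to 16 alternative fits, with 1 point for each fit, filled where the adjusted p was below 0.05, and a line at the value reported. Il5ra is left out because its fitted value depends on the prior count. Cpa3 stays between 7.95 and 8.82, Mcpt8 between 2.27 and 3.55, and the points of Prss34 lie on both sides of 0.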

How the data were processed

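The authors deposited raw gene counts for 6 libraries (3 AE9a-Ddit4+/+ and 3 AE9a-Ddit4-/-), as whole numbers with library totals of 62141558 to 72717681. Per the submitters' processing notes the builds were GRCm38 and mm10. The aligner, the counter and the use of strand are not given in the sources used here, and the labels and the methods name different library kits. Low counts were enriched at multiples of 4, so the limit of detection was set at 12 counts (3 fragments of 4 counts), which covers counting error only. Positions and exon lengths came from GENCODE M21 (55240 of 55421 identifiers matched), and 27 symbols that had become dates were restored.

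Genes were tested in R 4.3.3 with edgeR 4.0.16 (filterByExpr, TMM factors, robust quasi-likelihood F-test, two-sided, genotype only) and Benjamini-Hochberg adjustment over 18375 genes, after checks on simulated data. In these checks edgeR recovered 8% of genes changed 2-fold, 66% of those changed 4-fold and 90% of those changed 8-fold (50 genes each). A gene that did not pass may thus still differ between the groups. CPM used TMM-scaled totals. SE is the absolute log2 fold change over the square root of F, and fold changes are AE9a-Ddit4-/- over AE9a-Ddit4+/+. The alternatives also used DESeq2 1.42.0 and limma 3.58.1. The members and lists were chosen with earlier results of these data known. Named were all members, Ddit4, fixed partners and regulators, and, per list and direction, the 2 genes with the largest change past the threshold, besides the 2 most abundant genes of the list. The 8 marker lists cover erythroid, neutrophil, megakaryocyte, T and NK, B, stroma and endothelium, monocyte and immature leukemia cells.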

Additional observations from a re-analysis of the deposited data

How the results depend on the processing

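Over 17 alternatives, the number of genes past the threshold was 5535 as reported, 2964 with replicate number as a block, 2676 at an adjusted p below 0.01, 7097 with DESeq2, 6165 with limma-voom, 3915 with a minimum of 10 counts per library, and 3840 to 6021 with 1 library left out. The number of members that rose was 3 as reported, 3 with the replicate block and 2 to 4 over all alternatives. The number that fell was 0, except for 1 (Fcer1a) without AE9a-Ddit4-/- library 2. Replicate numbers did not pair the libraries (correlations of same-numbered deviations of -0.165, -0.194 and -0.0495). The block also moved the number of other basophil genes that rose from 7 to 3, and Jak2 and Traf6 lost their calls under it (adjusted p 0.0509 and 0.0504). Il5ra could not be tested under a minimum of 10 counts per library or with counts divided by 4. No called gene changed sign. Of 52 genes and 878 values, 811 kept direction and side of the threshold, 42 lost the call, 15 gained one and 10 turned sign. Prss34 was -0.010 with limma-voom, -0.18 with the block, -0.08 and -0.35 when AE9a-Ddit4+/+ library 1 or 3 was left out, and -0.04 and -0.46 when this was AE9a-Ddit4-/- library 2 or 3, with up to 1.33 over the left-out libraries. Leaving out AE9a-Ddit4+/+ library 3 gave -0.079 for Il1rap and 0.0073 for Gata1, AE9a-Ddit4-/- library 2 gave -0.000104 for Il1rap, and AE9a-Ddit4+/+ library 2 gave 0.15 for Alox5ap. The other ends of the ranges over left-out libraries were 0.72, -0.22 and -0.53 for Il1rap, Gata1 and Alox5ap. The causes were not tested. Depth limits Epx, and Prss34, Prg2 and Il5ra rest on 0 to 176 counts a library.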
